A study of Mus musculus with 6 samples.

Results

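Transcriptional coregulators are proteins that a DNA-bound factor such as PPARγ recruits to raise or lower the transcription of its target genes. When PPARγ holds an agonist, it exchanges corepressor complexes, which remove acetyl groups from histones, for coactivators, which add them or contact RNA polymerase II through the Mediator complex. In brown and beige fat, PGC-1α and PRDM16 are the coactivators best known for directing PPARγ to the thermogenic genes, and TLE3 is known as a white-selective partner of PPARγ that counteracts PRDM16. The genes described here were taken from a list of symbols, drawn up with earlier results of these data known. They were 9 of the 56884 gene IDs in each table, 7 of them coactivators (*Ppargc1a*, *Ppargc1b*, *Prdm16*, *Ncoa1*, *Ncoa2*, *Ncoa3* and *Med1*) and 2 of them corepressors (*Ncor1* and *Tle3*). Each symbol matched 1 gene ID.

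The libraries came from a stromal vascular fraction (SVF) cell line of mouse subcutaneous white fat that had been transduced with a retroviral vector for 1 of 2 mutants of PPARγ2 (PPARr2 in the sample labels). K382Q carries glutamine at the lysine, which resembles acetylated lysine, and K382R carries arginine, which resembles deacetylated lysine. There were 3 biological replicates of K382Q and 3 of K382R. All 6 were harvested at day 2 of beige differentiation, in medium with isobutylmethylxanthine (500 μM, a phosphodiesterase inhibitor that raises cAMP), indomethacin (125 μM), dexamethasone (2 μg/mL), insulin (5 μg/mL), T3 (1 nM) and rosiglitazone (0.5 μM, a PPARγ agonist). Cells were selected with puromycin as stable lines, and their age and clonality are not given in the sources used here. No untransduced or wild-type PPARγ2 group was analysed, so each value is relative to the other mutant. The question of the comparison is whether acetylation of PPARγ2 at this lysine goes with a different set of coregulator transcripts early in beige differentiation.

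The libraries held 5.95 to 8.15 Gb of aligned bases, with overlapping ranges in the 2 groups. Expression is given in TPM, a transcript level that is scaled by transcript length and to the same total in every library. The groups were set against each other by limma on a log2(TPM + 0.5) scale. A gene entered the test when 3 or more libraries reached 0.5 TPM, which left 15426 genes. Differences are log2 fold changes of K382Q against K382R on that scale, with Benjamini-Hochberg adjusted p-values over all genes tested. The median gene tested had a log2 fold change of -0.14, and median-ratio scaling brought this to 0.00, so a small negative change in TPM lies near the median gene. *Pparg* itself, the overexpressed gene, had a TPM of 1333, 1164 and 1104 in K382Q and of 1590, 1632 and 1612 in K382R (log2 fold change -0.43, adjusted p = 0.000977), and the gene-level value does not separate the transgene from the endogenous gene. *Sirt7*, which encodes the deacetylase in question, had a log2 fold change of -0.17 (adjusted p = 0.0433) that was -0.02 (adjusted p = 0.82) with median-ratio scaling. Adipocyte markers were abundant in both groups (summed TPM 53750 to 57612 in K382Q and 44405 to 45666 in K382R), with 3 of 8 higher, among them *Cd36* (0.43) and *Fabp4* (0.34), and 3 lower, among them *Adipoq* (-1.28) and *Cebpa* (-0.81). At an adjusted p under 0.05, 11.1% of the genes in the test rose and 36.9% fell. The share of adipocyte markers that fell was thus close to the background, and the share that rose was above it. With quantile normalization 1 of the 8 rose, where 19.1% of all genes did. The summed TPM of 8 precursor markers was lower in K382Q, at 462.8 to 509 against 774 to 811. Most of that sum was *Ly6a*, with a mean of 466.6 TPM in K382Q and 767.1 TPM in K382R. Of these markers, 4 of 4 tested fell, among them *Thy1* (-1.25) and *Pdgfra* (-0.88), beside the 36.9% of all genes that fell. The others were too low to enter the test. In bulk RNA, fewer cells of a type and less RNA per cell cannot be told apart. The part of this difference in the values below was not tested. Of 8 leukocyte and 6 endothelial markers, with a summed TPM of at most 5.27 and 2.25, 1 each passed the filter. These were *Cd68*, at 3.44 to 4.66 TPM in K382Q and 3.17 to 5.10 TPM in K382R, a level like that of *Ppargc1a* below, and *Pecam1*, at up to 2.08 TPM in K382Q and 1.57 TPM in K382R. Neither differed past the test (adjusted p = 0.981 and 0.449, limma). The others were at most 0.165 TPM in any library, with *Adgre1*, *Cd3e* and *Emcn* listed at 0 in all 6. Of 7 skeletal muscle markers, 4 were listed at 0 throughout and 2 were tested, *Des* (0.57) and *Acta1* (-0.94).

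The coregulators did not move together. *Ppargc1a* rose in K382Q, the means of *Ncoa1* and *Med1* fell by 20.7% and 19.5%, and the remaining 5 tested genes had changes of at most 0.08 on the log2 scale and did not pass the test. Falls like those of *Ncoa1* and *Med1* were common, as 24.4% and 26.7% of the genes tested had a lower log2 fold change than these 2. Of the 9 genes, 8 passed the filter on low values, each with a TPM above 0.5 in all 6 libraries, and *Prdm16* did not. Of the 8 tested, 1 was higher and 2 were lower at an adjusted p under 0.05. Over all genes tested, 48.1% passed that threshold, 11.1% higher and 36.9% lower, so 3 of 8 is no more than the background. *Ppargc1a* alone also passed a fold change over 2, which 3.88% of genes tested passed, 1.27% higher and 2.61% lower. The median log2 fold change of the 8 genes was -0.07, against -0.14 for all genes tested. The values of K382Q and K382R did not overlap for 4 of the 9 genes, 1 higher and 3 lower, where 57% of all genes tested did not overlap, 14.1% higher and 42.8% lower. With median-ratio scaling, 2 of the 8 were higher (*Ppargc1a* and *Ncor1*) and 2 were lower (*Ncoa1* and *Med1*), against 40.3% of all genes called, 19.9% higher and 20.4% lower. With quantile normalization the counts were the same, against 40.2%, 19.1% higher and 21% lower.

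**Figure D1:**
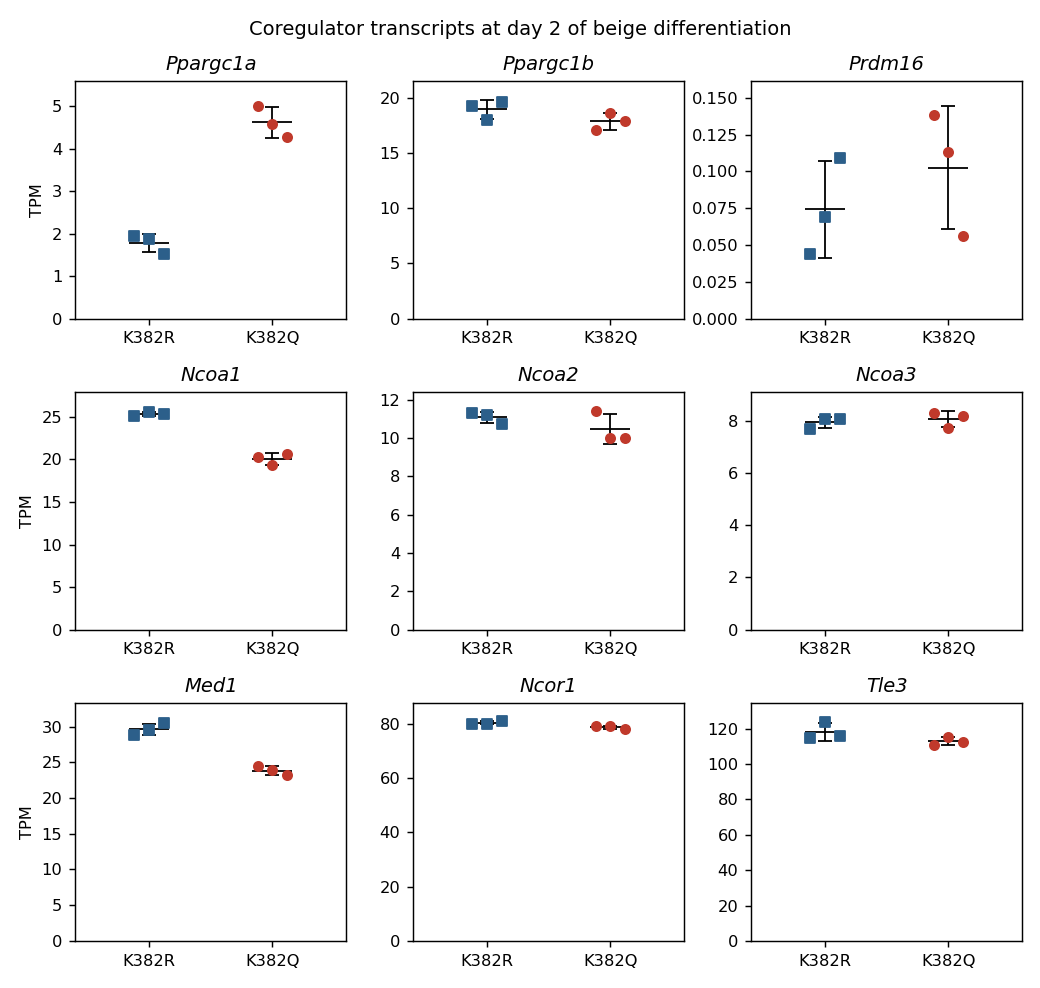
TPM of the 9 coregulator genes in each library of K382R (squares) and K382Q (circles), with the mean and SD of 3 replicates as black bars; each vertical axis starts at 0 and has its own range. *Ppargc1a* lies higher in all K382Q libraries, *Ncoa1* and *Med1* lie lower, and *Prdm16* is at most 0.138 TPM everywhere.

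*Ppargc1a* (ENSMUSG00000029167.14, GRCm39 chromosome 5, 51611592 to 51725068, minus strand) encodes PGC-1α, the cold- and cAMP-inducible coactivator of mitochondrial and thermogenic genes. Because its transcript carries the main difference among these genes, the bases just upstream of its canonical start are shown. They are the 250 bases before the start of its canonical GENCODE transcript, at chr5:51711265-51711514 of GRCm39 on the minus strand. They are read 5′ to 3′ towards that start, with the match to a cAMP response element (CRE) in capitals. The gene as listed extends past this window on its upstream side, to 51725068, and has 14 transcripts in GENCODE. Gene-level values do not show which start was used in these cells.

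Ppargc1a: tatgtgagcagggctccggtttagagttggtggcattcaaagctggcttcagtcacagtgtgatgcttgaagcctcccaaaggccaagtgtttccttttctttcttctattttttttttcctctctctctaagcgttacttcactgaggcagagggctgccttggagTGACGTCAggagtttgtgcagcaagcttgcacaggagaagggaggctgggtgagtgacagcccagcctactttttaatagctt

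The 9 upstream windows of this length were searched on both strands for the CRE (TGACGTCA), the PPAR response element (AGGTCA, any 1 base, AGGTCA) and the element bound by estrogen-related receptors (TCAAGGTCA). The last of these shares 6 letters, AGGTCA, with the PPAR element. *Ppargc1a* held 1 CRE, 83 to 76 bases before the canonical start, and none of the other 8 windows held a match to any of the 3 motifs. Over 21770 protein-coding genes, 1.69% of such windows held the CRE, 0.0367% the PPAR element and 0.432% the estrogen-related receptor element. A match is a description of the letters and not evidence of binding.

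In K382Q, *Ppargc1a* had a TPM of 5.00, 4.57 and 4.28, and in K382R of 1.93, 1.88 and 1.53. The lowest K382Q library was above the highest K382R library. The means were 4.62 ± 0.363 (SD, n = 3) and 1.78 ± 0.219 (SD, n = 3), a ratio of 2.59, and the log2 fold change was 1.17 (95% interval 0.89 to 1.45, adjusted p = 0.000163, limma). This change was above that of 99.1% of the genes tested. The transcript was nevertheless among the less abundant of the genes tested, with a mean TPM above that of 25.3% of them. Genes whose levels over the 6 libraries ran most like it were *Lipg* (endothelial lipase), *mt-Te*, *Spata25*, *mt-Ty* and *Ciart*, a repressor of the circadian clock. Their profiles of log2(TPM + 0.5), each centred on its mean, lay at a root mean square distance of 0.0486 to 0.0752 from that of *Ppargc1a*, among 13760 genes with a mean TPM of at least 1. *mt-Te* and *mt-Ty* are mitochondrial tRNA genes, and the level of *Lipg* was 13.8 ± 0.983 TPM (SD, n = 3) against 5.85 ± 0.394 TPM (SD, n = 3). The distance includes the difference between the groups, so it picks genes with a like log2 fold change (1.03 to 1.19 for these 5).

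*Ppargc1b* (ENSMUSG00000033871.15, chromosome 18, 61431207 to 61533502, minus strand) encodes PGC-1β, the close relative of PGC-1α that is less responsive to cold. It had a TPM of 17.1, 18.7 and 17.9 in K382Q and of 19.3, 18.0 and 19.6 in K382R. The groups overlapped, and the log2 fold change was -0.08 (95% interval -0.21 to 0.05, adjusted p = 0.289, limma). Within each library, the ratio of *Ppargc1a* to *Ppargc1b*, which does not depend on scaling between libraries, was 0.292, 0.245 and 0.239 in K382Q and 0.1, 0.104 and 0.0781 in K382R. The ratio was thus 2.75 times as high in K382Q, without overlap. Its exact two-sided permutation p of 0.1 is the smallest that 3 against 3 libraries allow. By TPM, *Ppargc1b* stayed the more abundant of the pair in all 6 libraries. By the mean coverage per base, which averages over a whole gene where TPM adds up its isoforms, the same ratio was 0.94 ± 0.0935 (SD, n = 3) in K382Q and 0.358 ± 0.0536 (SD, n = 3) in K382R. The rise is thus seen with either quantity, while the relative level of these 2 genes depends on it.

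*Prdm16* (ENSMUSG00000039410.17, chromosome 4, 154400582 to 154721330, minus strand) encodes the zinc finger coregulator that drives brown and beige identity. Its transcript was close to the lower limit of these libraries. The TPM was 0.138, 0.113 and 0.0564 in K382Q and 0.0442, 0.0694 and 0.109 in K382R, and the groups overlapped. The mean coverage behind these values was 0.127 to 0.321 reads per base in K382Q and 0.123 to 0.254 in K382R. In GENCODE, *Prdm16* shares 446 and 109 exonic bases with a pair of lncRNA genes on the opposite strand, whose reads cannot be told apart from its own if reads were counted without strand. Without the filter on low values, its log2 fold change was 0.07 (95% interval -0.11 to 0.25, adjusted p = 0.589, limma), and the exact two-sided permutation p was 0.4. With no pseudocount, the log2 ratio of the means was 0.47. A difference in *Prdm16* was therefore not detectable at this depth, which does not show that the groups are alike. Of the genes that work with or against PRDM16, 10 of 11 were tested, 0 rose and 6 fell, where 36.9% of all genes fell. *Zfp423*, which encodes a repressor of the thermogenic program, had a log2 fold change of -0.50 (adjusted p = 0.000207), and *Ctbp2*, a corepressor that PRDM16 recruits, of -0.45 (adjusted p = 0.000429). *Zfp516* (-0.37, adjusted p = 0.000751, limma) and *Kdm1a* (-0.30, adjusted p = 0.00047, limma) fell as well. So did *Ehmt2* (-0.27, adjusted p = 0.000279, limma) and, by less, *Ctbp1* (-0.08, adjusted p = 0.0412, limma). Among the PRDM16 partner genes, *Ebf2* and *Cebpb* had values of 0.04 and 0.09 that did not pass the test.

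The p160 family, *Ncoa1* (SRC-1), *Ncoa2* (TIF2) and *Ncoa3* (SRC-3), encodes coactivators that bind agonist-loaded nuclear receptors and bring in the acetyltransferases CBP and p300. In mice, TIF2 is known to favour fat storage and SRC-1 to favour energy expenditure. *Ncoa1* (ENSMUSG00000020647.11, chromosome 12, 4297362 to 4527182, minus strand) had a TPM of 20.2, 19.3 and 20.6 in K382Q and of 25.1, 25.5 and 25.3 in K382R. All 3 K382Q libraries lay below all 3 K382R libraries. The means were 20.1 ± 0.674 (SD, n = 3) and 25.3 ± 0.225 (SD, n = 3). The log2 fold change was -0.33 (95% interval -0.43 to -0.22, adjusted p = 0.000746, limma). Relative to the median gene the change was -0.19, and with median-ratio scaling it was -0.18 (adjusted p = 0.0147), a smaller decrease that still passed the test.

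*Ncoa2* (ENSMUSG00000005886.15, chromosome 1, 13209329 to 13444307, minus strand) had a TPM of 11.4, 10.0 and 10.0 in K382Q and of 11.3, 11.2 and 10.8 in K382R. The groups overlapped (log2 fold change -0.08, 95% interval -0.25 to 0.09, adjusted p = 0.399, limma). *Ncoa3* (ENSMUSG00000027678.18, chromosome 2, 165834556 to 165915162, plus strand) had 8.30, 7.70 and 8.19 against 7.68, 8.06 and 8.06. The groups overlapped here too (0.02, 95% interval -0.14 to 0.18, adjusted p = 0.819, limma). The make-up of the family differed accordingly between the groups. *Ncoa1* made up 50.7, 52.2 and 53.1% of the summed p160 TPM in K382Q and 56.9, 57 and 57.4% in K382R. The share of *Ncoa3* was 20.8, 20.8 and 21.1% against 17.4, 18 and 18.3%. Neither share overlapped between the groups (exact two-sided permutation p = 0.1 for each, the smallest possible). By mean coverage, the share of *Ncoa1* was lower, 41.1% ± 0.706 (SD, n = 3) against 46.6% ± 0.41 (SD, n = 3), with the same direction. The family's summed TPM was 38.6 ± 1.46 (SD, n = 3) in K382Q and 44.3 ± 0.381 (SD, n = 3) in K382R.

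*Med1* (ENSMUSG00000018160.16, chromosome 11, 98042980 to 98084119, minus strand) encodes the Mediator subunit through which nuclear receptors and PRDM16 contact the transcription machinery. Its TPM was 24.4, 23.9 and 23.2 in K382Q and 28.9, 29.5 and 30.4 in K382R. The libraries of the groups were separate, and the log2 fold change was -0.31 (95% interval -0.41 to -0.20, adjusted p = 0.000867, limma), or -0.16 (adjusted p = 0.0192) with median-ratio scaling. Of the other 32 genes for Mediator subunits and its kinase module, 31 were tested, 0 rose and 17 fell, with a median of -0.17 against -0.14 for all genes, of which 11.1% rose and 36.9% fell. The most negative were *Med15* (-0.43, adjusted p = 3.73e-05, limma), a subunit of the tail module that binds activators, and *Med25* (-0.40, adjusted p = 0.000988, limma). With median-ratio scaling, 2 rose and 3 fell, against 19.9% and 20.4% of all genes, so the number of Mediator genes called depended on the scaling.

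*Ncor1* (ENSMUSG00000018501.18, chromosome 11, 62207252 to 62349367, minus strand) encodes the platform of the corepressor complex that holds HDAC3. Its TPM was 79.0, 79.0 and 78.0 in K382Q and 79.9, 80.02 and 80.8 in K382R. The groups did not overlap, yet the K382Q mean was -2.01% from the K382R mean (log2 fold change -0.03, 95% interval -0.10 to 0.04, adjusted p = 0.451, limma). The sign depended on the scale. With median-ratio scaling *Ncor1* was higher in K382Q by 0.12 (adjusted p = 0.0124), and with quantile normalization by 0.13 (adjusted p = 0.00992). Within each library, the ratio of *Ncoa1* to *Ncor1* was 0.256, 0.245 and 0.265 in K382Q and 0.314, 0.319 and 0.313 in K382R, without overlap. In GENCODE, *Ncor1* shares 3714 exonic bases with *Ttc19* and 1087 with *Pigl* on the opposite strand, and whether reads were counted by strand is not given in the sources used here. Exonic bases shared with genes on the opposite strand were fewer for *Ncoa3* (349 and 154), *Ppargc1b* (279), *Ncoa1* (219) and *Ncoa2* (12), and none were found for *Ppargc1a* and *Med1*.

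*Tle3* (ENSMUSG00000032280.17, chromosome 9, 61279648 to 61325779, plus strand) had a TPM of 111, 115 and 112 in K382Q and of 115, 124 and 116 in K382R. The groups overlapped (log2 fold change -0.07, 95% interval -0.15 to 0.02, adjusted p = 0.198, limma). It shares 837 exonic bases with an lncRNA gene on the opposite strand, *Gm10655*. The ratio of *Ppargc1a* to *Tle3* in a library was 0.045, 0.0397 and 0.0381 in K382Q and 0.0168, 0.0152 and 0.0132 in K382R. The K382Q ratios were higher in each library, as for *Ppargc1a* alone.

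By TPM, the order of the 9 genes was the same in both groups, from *Tle3*, *Ncor1*, *Med1*, *Ncoa1*, *Ppargc1b*, *Ncoa2* and *Ncoa3* to *Ppargc1a* and *Prdm16*, and no neighbours overlapped within a group. By mean coverage, the group means of *Ncor1* and *Tle3* changed places and *Ncoa3* stood above *Ncoa2* and *Ppargc1b*. The coverage ratio of *Ncor1* to *Tle3* was 1.05, 0.989 and 1.09 in the K382Q libraries, so their order there differed between libraries. The corepressors were thus the 2 most abundant of the 9 with either quantity.

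**Figure D2:**
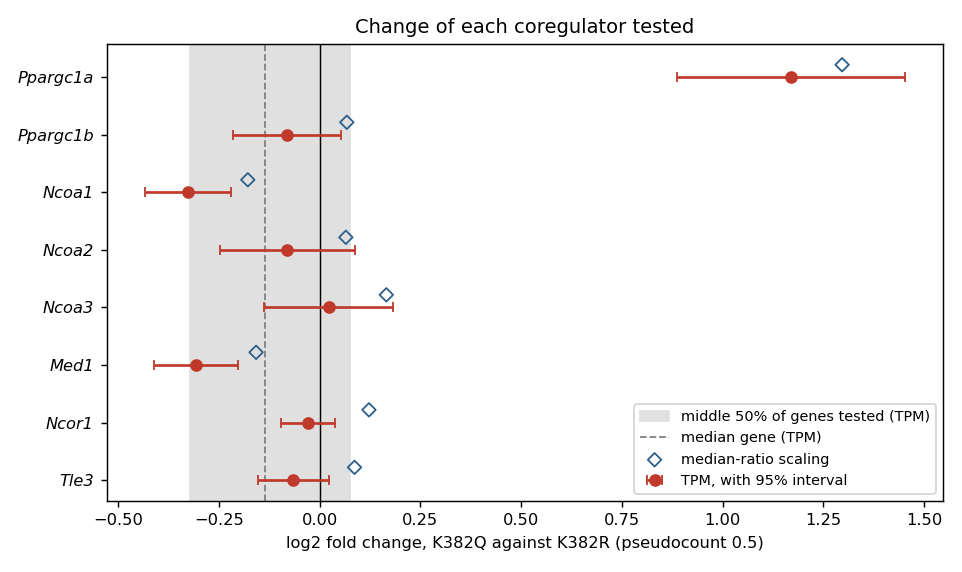
Log2 fold change of the 8 tested coregulators, K382Q against K382R, on the log2(TPM + 0.5) scale with 95% intervals (circles) and after median-ratio scaling (open diamonds); the grey band is the middle 50% of all genes tested and the dashed line their median, -0.14. *Ppargc1a* at 1.17 stands far to the right, and *Ncoa1* and *Med1* lie to the left of the median gene under the TPM scale.

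The coactivators as a class did not rise against the corepressors. The median log2 fold change was -0.08 over the 6 coactivators tested and -0.05 over the 2 corepressors, with no test, since the genes were chosen with results known. In each library, the summed TPM of the 7 coactivators over that of the 2 corepressors was 0.456, 0.434 and 0.443 in K382Q and 0.483, 0.462 and 0.487 in K382R. The K382Q ratios were all the lower ones, with a change of -7.01% in the mean, and of -10.4% when *Ppargc1a* was left out. The sum is led by the abundant *Med1*, *Ncoa1* and *Ppargc1b*, and the increase of *Ppargc1a* was a small part of it in TPM.

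**Figure D3:**
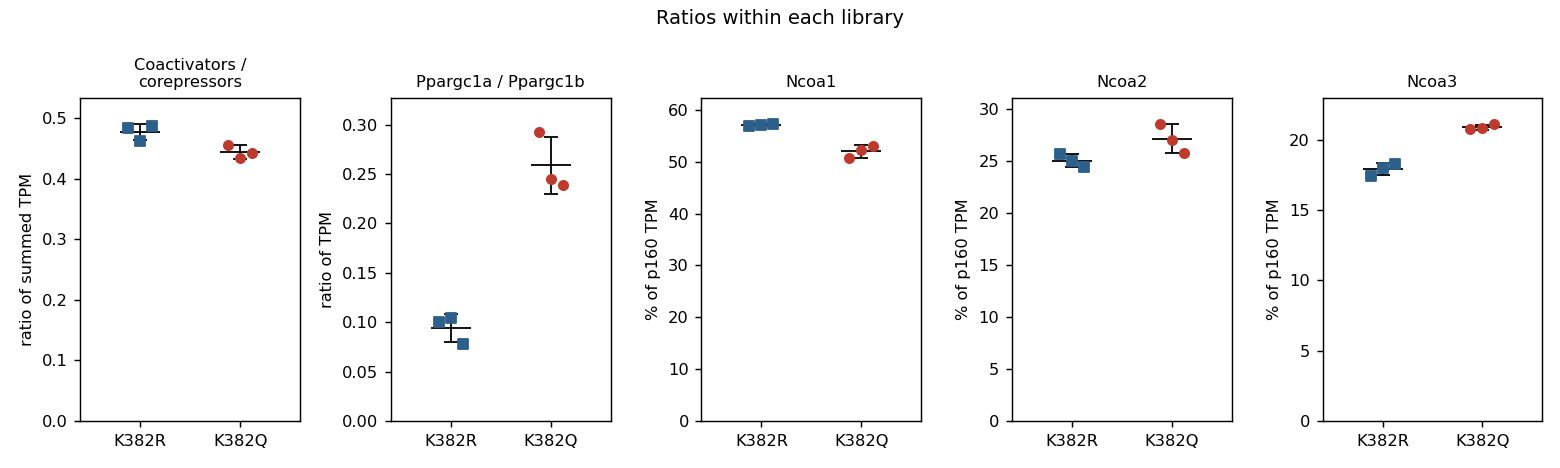
Ratios formed within each library, with K382R as squares, K382Q as circles, and mean and SD of 3 replicates: summed coactivator TPM over summed corepressor TPM, *Ppargc1a* over *Ppargc1b*, and the share of each p160 gene in their summed TPM. *Ppargc1a* over *Ppargc1b* is 2.75 times as high in K382Q, while the coactivator to corepressor ratio differs by -7.01%.

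Other genes of the pathway were described with lists of known coregulators and of the factors they serve. Among 17 other coactivator genes tested, 1 rose and 11 fell (median -0.25), where 11.1% of all genes rose and 36.9% fell (median -0.14). *Lpin1*, a partner of PGC-1α that is also an enzyme of triglyceride synthesis, rose by 0.39 (adjusted p = 0.000235, limma), while the arginine methyltransferase gene *Prmt1* fell by 0.71 (adjusted p = 7.44e-06, limma) and the chromatin remodelling gene *Smarcd3* fell by 0.54 (adjusted p = 0.00464, limma). *Pprc1*, the third gene of the PGC-1 family, had a log2 fold change of -0.47 (adjusted p = 4.31e-05, limma) and was named after its value was seen. The PGC-1 family thus moved in different directions, with *Ppargc1a* higher, *Pprc1* lower and *Ppargc1b* without a change that passed the test, and these directions held under median-ratio scaling for *Ppargc1a* and *Pprc1*. With that scaling, 2 of the 17 coactivators rose and 6 fell, against 19.9% and 20.4% of all genes.

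Among 16 other corepressor genes tested, 2 rose and 9 fell (median -0.18), beside the same 11.1% and 36.9% of all genes and their median of -0.14. *Mybbp1a*, which encodes a repressor of PGC-1α, fell by 0.63 (adjusted p = 4.23e-06, limma). The pocket protein genes *Rbl1* and *Rb1* rose by 0.22 (adjusted p = 0.00745, limma) and 0.18 (adjusted p = 0.0326, limma). With median-ratio scaling, 7 of the 16 corepressors rose and 6 fell, where 19.9% of all genes rose and 20.4% fell. Of the 5 other TLE genes, 0 rose and 1 fell, *Tle2* (-0.91, adjusted p = 0.00682, limma), which had a mean of 0.318 TPM in K382Q and 1.02 TPM in K382R and passed the filter only through K382R, where it was higher.

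Regulators of PGC-1α numbered 13, of which 1 rose and 9 fell (median -0.21), where 11.1% of all genes rose and 36.9% fell. *Kat2a*, which encodes the acetyltransferase GCN5 that silences PGC-1α, fell by 0.58 (adjusted p = 1.59e-05, limma). *Prkaa1*, for a catalytic subunit of AMPK, fell by 0.54 (adjusted p = 2.65e-05, limma). *Atf2*, a factor that binds the CRE, rose by 0.17 (adjusted p = 0.0238, limma). The call of *Atf2* was lost with the replicate block, without K382Q replicate 1, and without each of the K382R replicates in turn. The rise of *Atf2* was 0.32 with median-ratio scaling (adjusted p = 0.000936, limma) and 0.33 with quantile normalization (adjusted p = 0.000911, limma). Of the 13 regulators, 1 rose and 4 fell with median-ratio scaling, against 19.9% and 20.4% of all genes. Of 18 factors that PGC-1 proteins coactivate, 15 were tested, 3 rose and 2 fell (median 0.00), where 11.1% of all genes rose and 36.9% fell. With median-ratio scaling 6 rose and 0 fell, against 19.9% and 20.4% of all genes, and with quantile normalization 8 rose and 0 fell, against 19.1% and 21%. *Ppara*, the fatty acid oxidation factor, rose by 0.68 (adjusted p = 0.00388, limma) and *Rxrg* by 0.55 (adjusted p = 0.00576, limma). *Ppard* fell by 0.24 (adjusted p = 0.00342, limma) and *Mef2d* by 0.16 (adjusted p = 0.0134, limma), and neither fall passed with median-ratio scaling. *Esrra*, the usual partner of PGC-1α in mitochondrial genes, had a value of -0.07 (adjusted p = 0.285, limma).

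Of 15 thermogenic target genes, 13 were tested, 10 rose and 2 fell, with a median of 1.10, where 11.1% of all genes rose and 36.9% fell. This list overlaps with genes the study followed up from these samples, so it is not independent evidence of a direction. *Cox7a1*, a muscle and brown fat isoform of a cytochrome c oxidase subunit, had a TPM of 67.9 to 80.9 in K382Q and 10.9 to 19.8 in K382R (log2 fold change 2.25, adjusted p = 5.23e-05, limma). *Cpt1b*, for the carnitine transferase of fatty acid import, had 19.3 to 21.4 against 3.72 to 7.92 (1.76, adjusted p = 0.000387, limma). *Otop1* rose by 1.23 and *Plin5*, for a lipid droplet protein of oxidative tissues, rose by 1.06. *Fabp3*, *Cidea*, *Ucp1* and *Elovl3* also passed both thresholds, with log2 fold changes of 2.52, 2.49, 1.28 and 1.10. *Ucp1*, at 0.816 to 0.98 TPM against 0.0439 to 0.162, and *Cidea*, at 4.33 to 4.75 TPM against 0.108 to 0.751, passed the filter only through K382Q, where they were high. The nuclear genes for mitochondrial transcription *Tfb2m* and *Tfam*, which PGC-1α is known to induce with NRF1, were lower by -0.29 (adjusted p = 0.0037, limma) and -0.15 (adjusted p = 0.039, limma), and neither passed with median-ratio scaling.

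**Figure D4:**
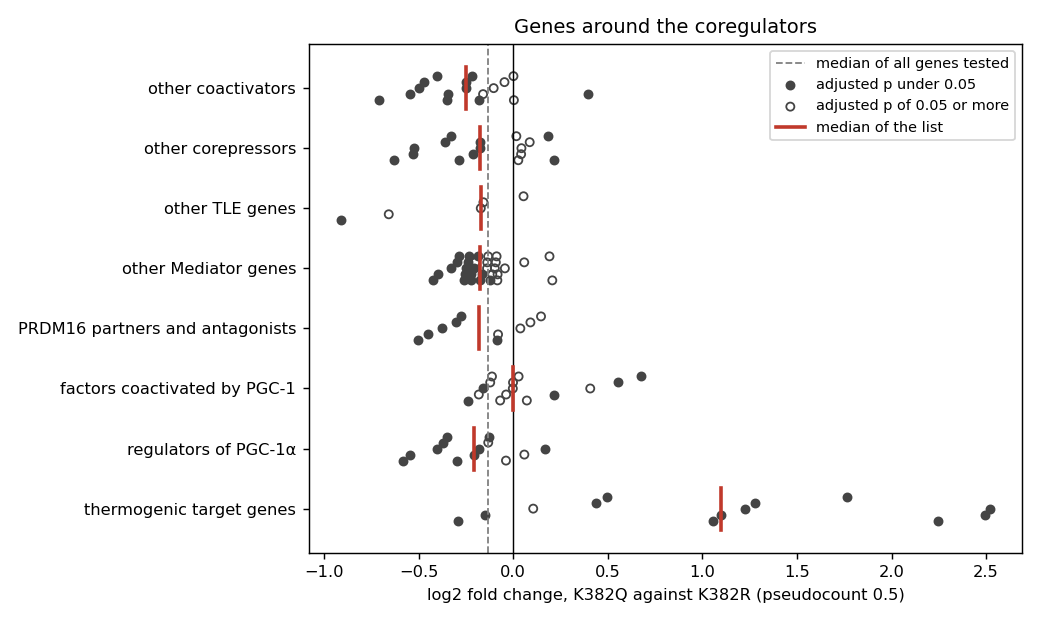
Log2 fold change, K382Q against K382R on the log2(TPM + 0.5) scale, of each tested gene in 8 lists around the coregulators; filled points had an adjusted p under 0.05, red bars are list medians and the dashed line is the median of all genes tested. Thermogenic target genes have a median of 1.10, while the lists of coregulators, Mediator subunits and PGC-1α regulators have medians between -0.25 and -0.17.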

How the data were processed

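RNA of 3 K382Q and 3 K382R libraries was sequenced. Trimming, HISAT2 alignment (GRCm39) and StringTie quantification per library were done by the authors. The deposited tables hold coverage (mean reads per base, not normalized), FPKM (scaled by length and aligned fragments) and TPM (shares of a fixed total). Counts were not analysed here, so no counting interval is given. Repeated gene IDs (at most 5 per library) were summed. Depth was read as the 99th percentile of coverage over FPKM. limma 3.58.1 in R 4.3.3 with an intensity trend was run on log2(TPM + 0.5), tested on simulated data beforehand. Python 3.11.15 did the rest. Same-numbered replicates had correlations of deviations of -0.0177, 0.0507 and 0.0223, so no pairing by number was seen. Such values do not exclude that same-numbered libraries were handled together. GENCODE M39 held 99.0% of the gene IDs. Promoter windows came from GRCm39.

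The members and lists were chosen with earlier results of these data known. Named genes were the 9 members, *Pparg*, *Sirt7*, in each list the genes past both thresholds and, where fewer than 2 were, up to 2 per direction with the largest change at an adjusted p under 0.05, and the 5 genes nearest to *Ppargc1a*. The rule also asked for genes nearest to *Prdm16*; these are not given, since *Prdm16* was below the filter. Further list genes were named after their values were seen. A result for 1 gene that the rule names is not reported here.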

Additional observations from a re-analysis of the deposited data

How the results depend on the processing

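The increase of *Ppargc1a* and the decreases of *Ncoa1* and *Med1* kept their direction and an adjusted p under 0.05 (limma) in all 16 alternatives, with log2 fold changes of 1.01 to 1.33, -0.35 to -0.17 and -0.33 to -0.15. *Ppargc1a* also kept its fold change over 2. Coverage scaled to a fixed total was an alternative chosen after seeing the data. The signs of 4 genes that did not pass the test turned. With FPKM, the log2 fold changes were 0.000997 for *Ppargc1b*, 4.18e-05 for *Ncoa2*, 0.054 for *Ncor1* and 0.019 for *Tle3*. They were 0.067, 0.065, 0.12 and 0.086 with median-ratio scaling, and 0.079, 0.068, 0.13 and 0.059 with quantile normalization, where 2 genes were called higher. The median of the coactivators was 0.00052 with FPKM, 0.066 with median-ratio scaling, 0.074 with quantile normalization and -0.035 with a transcript length trend removed. That of the corepressors was 0.036, 0.10, 0.093 and -0.018. The coactivator to corepressor ratio by coverage was 0.566 in K382Q and 0.596 in K382R. Over all genes, 577 were higher and 1287 lower at a fold change over 1.5, and 226 were lower past 2-fold with FPKM.

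Counts in the gene lists moved with the scaling. With median-ratio scaling, other coactivators had 2 higher and 6 lower, other corepressors 7 higher, TLE genes 1 higher, Mediator 2 higher and 3 lower, PGC-1 coactivated factors 6 higher and 0 lower, PGC-1α regulators 4 lower and thermogenic targets 0 lower. With quantile normalization these were 2 and 6, 7, 1, 3 and 3, 8 and 0, 3, and 0, and 1 adipocyte marker was higher. With FPKM, TLE genes had 1 higher and 0 lower, Mediator 1 higher and 8 lower, PGC-1 coactivated factors 5 higher and 1 lower, and thermogenic targets 1 lower. With no filter, 1 corepressor was higher, 1 thermogenic target lower and 1 endothelial marker lower. With a minimum of 1 TPM, 0 TLE genes were lower. With the length trend removed, 2 TLE genes were lower, 1 Mediator gene higher and 1 thermogenic target lower. By coverage, 1 corepressor was higher, 3 TLE genes lower and 5 adipocyte markers lower.

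Replicate numbers were not used to pair the libraries in the main fit. With the replicate block, 0 PGC-1α regulators were higher and 1 thermogenic target was lower, and no call on the 8 coregulators changed. Leaving out each library in turn gave 1 to 2 corepressors higher, 0 to 2 TLE genes lower, 0 to 1 PRDM16 partners higher, 0 to 1 PGC-1α regulators higher and 1 to 2 thermogenic targets lower, and 1 coregulator higher and 2 lower each time. The cause of these shifts was not tested. With 3 libraries per group, no exact permutation test can go below 0.1, and p-values measure the spread between these libraries, which the labels call biological replicates.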

Other observations

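A few genes next to the coregulators were under the filter on low values and had no test, and they were picked after their values were seen. *Med12l*, for an alternative subunit of the Mediator kinase module, had a TPM of 0.161 to 0.194 in K382Q and of 0.0728 to 0.127 in K382R. *Mef2c*, for a factor that PGC-1α coactivates, had 0.113 to 0.161 in K382Q and 0.333 to 0.616 in K382R. *Esrrg*, for an estrogen-related receptor of oxidative tissues, had 0.187 to 0.254 in K382Q and 0.18 to 0.238 in K382R, with overlap, and *Esrrb* was listed at 0 in all 6 libraries.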
